A study of Mus musculus with 6 samples.

Results

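The genes described here encode the machinery that docks, primes and fuses hormone granules with the plasma membrane. They were taken by name among the protein-coding genes of the authors' annotated tables: syntaxins (Stx), syntaxin-binding proteins (Stxbp), vesicle-associated membrane proteins (Vamp), Snap23, Snap25, Snap29 and Snap47, synaptotagmins (Syt), synaptotagmin-like proteins (Sytl), Unc13, Rims, complexins (Cplx), Cadps, Doc2, Rab3, Rab27, Exph5, Rph3a and Rph3al, Nsf, and Napa, Napb and Napg. This gave 83 genes among 17668 protein-coding genes in the annotated tables and 47643 gene identifiers in the raw counts. Their RNA was measured by sequencing of pancreatic islets of wild-type mice (WT) and of mice carrying a miR-203 transgene restricted to beta cells (TG), with 3 libraries per genotype. Per the labels, all 6 samples came from male mice aged 10 weeks that had been fasted for 12 h before the islets were frozen. The sources used here do not give the promoter of the transgene or the number of animals per library. The p-values therefore reflect the spread among these 6 samples, some of which may be technical. In bulk islet RNA, fewer cells of a type and less RNA per cell cannot be told apart.

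Insulin leaves the beta cell by regulated exocytosis. A vesicle SNARE on the granule zips up with target SNAREs on the plasma membrane, a Munc18 protein holds and templates the syntaxin, and Munc13, RIM and CAPS proteins make docked granules ready for release. Synaptotagmins sense calcium or act as adaptors, complexins clamp and then promote fusion, and NSF with its SNAP adaptors takes the used SNARE complexes apart. Rab3 and Rab27 on the granule recruit effectors such as granuphilin, the product of Sytl4, which tether granules at the membrane. A microRNA pairs through its seed, bases 2 to 8, with sites in the 3′ UTR of messenger RNAs and usually lowers their level or translation. The mature form of the transgene product is shown with its seed in capitals because the 3′ UTRs of the exocytosis genes are read against that seed below. The sequence is from RefSeq and lies on the plus strand of GRCm38.p6 at chr12:112130927-112130948.
mmu-miR-203-3p: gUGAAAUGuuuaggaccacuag

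The libraries held 20176456 to 27482339 counts each, and the 83 genes took 0.564% to 0.719% of them. The first table of the deposit holds WT 1, WT 2, TG 1 and TG 2, and the second table holds WT 3 and TG 3. The Mir203 gene had 170, 164 and 150 counts in the TG libraries and 39, 0 and 0 in the WT libraries. WT 1 thus stood apart from the other WT libraries. Whether its reads came from the mouse's own gene was not tested. WT 3 and TG 3 went against the label of male mice: Xist had 25145 and 27240 counts there and at most 13 in any other library, while 4 Y-linked genes summed to 16 and 1 counts against at least 5463. Results are therefore also given for the first table only and without WT 1. TG 2 was the TG library nearest to WT. The chi-square per degree of freedom between its counts and those of WT 1 was 31.6, below the 42.4 between WT 1 and WT 2, and no pair of libraries matched within sampling noise. The islet label held in all 6 libraries, with Ins2 between 23309 and 168105 CPM and Gcg between 17346 and 45372 CPM (counts relative to the library size after TMM adjustment).

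The target-membrane and vesicle SNAREs differed little between the genotypes. The largest fitted differences were those of Sytl4, a tethering gene, and Rims3, a priming gene. Sytl4, which encodes granuphilin, was on average 3.03-fold lower in TG islets, and Rims3, which encodes a small RIM protein of the release site, was 2.61-fold lower. Both were lower in every TG library than in any WT library. Syt16, Unc13d, Cplx1 and Syt6, all of low abundance, were on average over 2-fold higher, and Stx16 was 1.57-fold higher. None of these differences passed an adjusted p of 0.05 in edgeR's quasi-likelihood test with all 6 libraries, and 62 of the 74 genes tested differed by 1.5-fold or less. The dot plot by role shows 72 of the tested genes in each TG library.

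**Figure D1:**
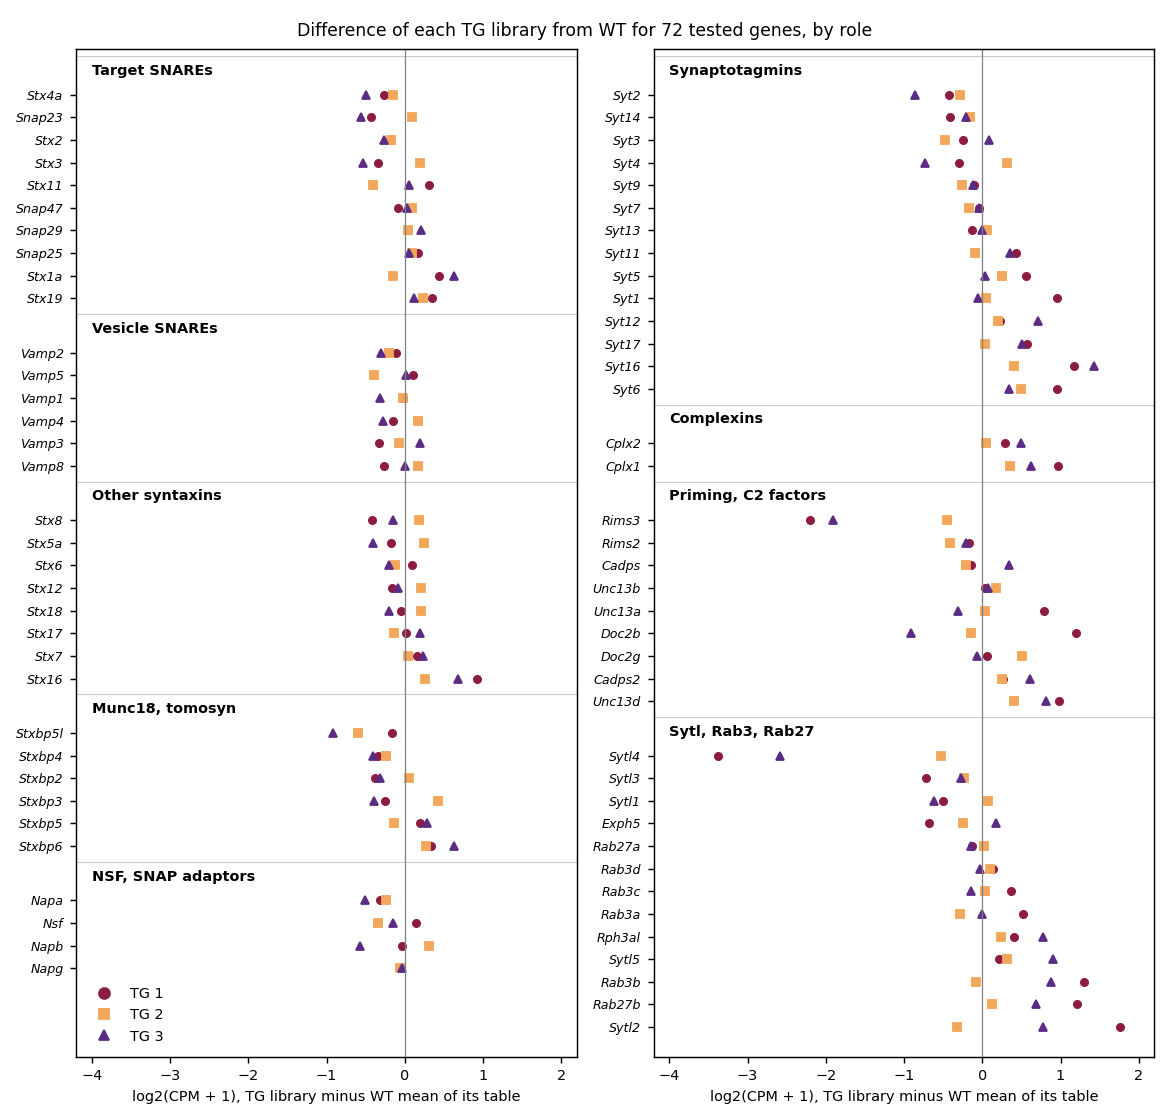
Difference of each TG library from the WT libraries of its own table for 72 of the 74 tested genes, grouped by role, on the log2(CPM + 1) scale (TG 1 circles, TG 2 squares, TG 3 triangles). Sytl4 and Rims3 lie farthest to the left, in TG 1 and TG 3, while the TG 2 squares stay within 1 log2 unit of WT for every gene drawn.

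Of the 83 genes, 74 passed the filter on low counts. Cplx3, Cplx4, Doc2a, Rims1, Rims4, Rph3a, Syt8, Syt15 and Unc13c did not. Doc2a and Syt15 had the most reads among these 9. Doc2a had 6, 3 and 19 counts in WT and 11, 7 and 51 in TG. Syt15 had 1, 4 and 8 counts in WT and 14, 10 and 21 in TG, so its groups did not overlap, at very low counts. Unc13c had at most 2 counts in any library. TG 3 had no read of Cplx3, which allows up to 0.125 CPM if a count of 0 stands for at most 3.

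Levels of different genes can be compared only per length, in the deposited FPKM (fragments scaled to gene length and library size). Syt13, an atypical synaptotagmin that does not bind calcium, was by far the most abundant at 273 ± 41.3 FPKM in WT and 268 ± 41.8 in TG (SD, n = 3). It was followed by Cplx2 at 88.1 ± 11.8 FPKM in WT and Sytl4 at 79.0 ± 4.56 in WT. Rab27a, Napa, Stx7, Vamp8, Syt7 and Rph3al lay between 49.98 and 69.9 FPKM in WT, with neighbours in this order closer to each other than the larger of their SDs. In TG, Rph3al stood next to Cplx2 at 71.1 ± 22.5 FPKM, and Sytl4 averaged 25.5 ± 27.2 FPKM. Snap25 (20.2 ± 0.57 FPKM in WT) and Stx1a (8.51 ± 3.34) were far below Syt13, as the plot of FPKM shows.

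**Figure D2:**
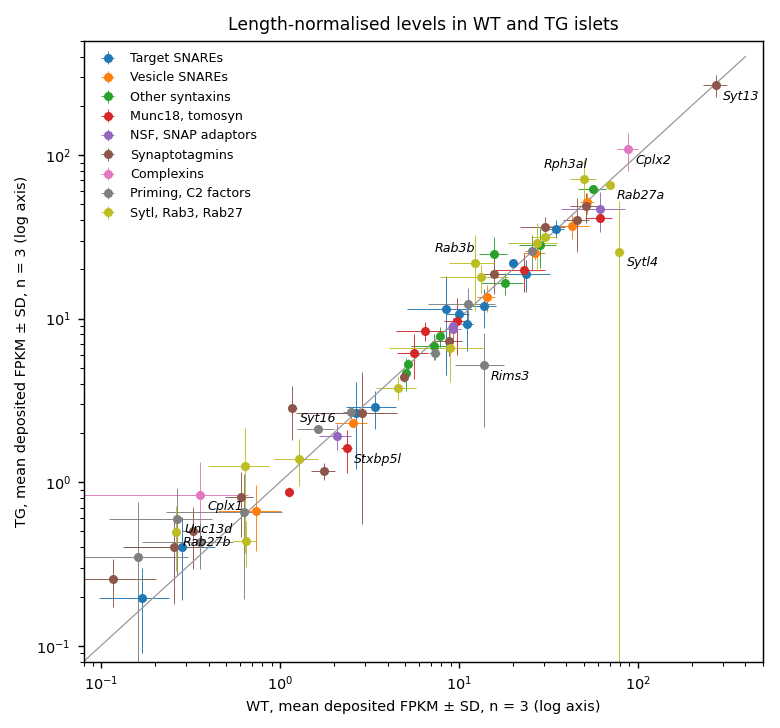
Mean deposited FPKM in WT (horizontal) and TG (vertical) islets for the 75 exocytosis genes above 0.1 in both genotypes, on log axes with SD over 3 libraries, coloured by role. The grey line marks equal levels, and Sytl4 and Rims3 lie below it.

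Among the target-membrane SNAREs, which sit on the plasma membrane and receive the granule, all 11 genes were tested, and 7 had a fitted value above 0 and 4 below. Stx1a and Snap25 form the target complex for insulin granules. Snap25 measured 146, 140 and 127 CPM in WT and 160, 153 and 132 CPM in TG, a log2 fold change of 0.11 ± 0.12 (SE). Stx1a measured 16.2, 21.03 and 29.6 CPM in WT and 25.5, 16.6 and 46.5 CPM in TG, a log2 fold change of 0.34 ± 0.22. Their groups overlapped. Stx4a, a syntaxin of the plasma membrane with a role in sustained secretion, was 46.6, 47.1 and 72.1 CPM in WT and 38.8, 42.0 and 50.8 in TG, lower in TG within each table. This gave a log2 fold change of −0.31 ± 0.13, with an edgeR adjusted p of 0.348. Exons of Stx4a overlap those of another gene, and with the strand setting of the counting not given, its counts are uncertain. Snap23, a relative of Snap25, was 53.8, 51.0 and 39.8 CPM in WT and 38.6, 55.8 and 26.6 in TG (log2 fold change −0.29 ± 0.18).

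All 6 vesicle SNAREs were tested, and each had a fitted value at or slightly below WT, between −0.21 and −0.03 on the log2 scale. Vamp2, the vesicle SNARE of insulin granules, measured 163, 136 and 189 CPM in WT and 138, 129 and 152 in TG (log2 fold change −0.21 ± 0.14). Vamp8, known for granules that newly arrive at the membrane, measured 115, 135 and 114 CPM in WT and 104, 139 and 113 in TG (−0.03 ± 0.16). For both genes the groups overlapped. Vamp3, a close relative of Vamp2, had a log2 fold change of −0.07 ± 0.15.

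The 8 syntaxins of endosomes, Golgi and endoplasmic reticulum lay between −0.11 and 0.13 except for Stx16. Stx16, a syntaxin of the trans-Golgi network that takes part in retrieval from endosomes, was 55.1, 63.8 and 67.6 CPM in WT and 113, 71.2 and 109 CPM in TG. Every TG library was above every WT library, and TG 2 was closest to WT. The log2 fold change was 0.65 ± 0.19, with an edgeR adjusted p of 0.245. Without TG 2, the edgeR adjusted p was 0.0105, in a range of 0.0105 to 0.936 over all alternatives. As TG 2 was the TG library nearest to WT, its removal favours a small p, and 8.82% of all genes were then called higher. Stx7, the most abundant of these syntaxins, had a log2 fold change of 0.13 ± 0.16.

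Of the 7 Munc18, tomosyn and other syntaxin-binding genes, 5 had a fitted value below 0. Stxbp2 (log2 fold change −0.20 ± 0.15) and Stxbp3 (−0.05 ± 0.23), which encode Munc18 proteins, had overlapping groups.

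Stxbp5l encodes tomosyn 2, which binds target SNAREs and holds back fusion. It measured 19.9, 22.8 and 18.3 CPM in WT and 18.8, 13.8 and 9.17 in TG, a log2 fold change of −0.59 ± 0.21 with an edgeR adjusted p of 0.292. TG 1 overlapped with WT. Stxbp6, whose product amisyn also binds target SNAREs, measured 43.3, 32.2 and 20.01 CPM in WT and 47.2, 45.2 and 31.5 in TG (0.41 ± 0.17, edgeR adjusted p 0.339). Its TG values were higher within each table, while the WT library of the second table was the lowest of all.

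The 4 genes for NSF and its SNAP adaptors all had fitted values below 0, from −0.36 to −0.05. Napa, which encodes alpha-SNAP, measured 179, 200 and 304 CPM in WT and 152, 160 and 213 in TG, lower in TG within each table. This gave a log2 fold change of −0.36 ± 0.14, with an edgeR adjusted p of 0.330. Nsf, the ATPase of the complex, measured 75.4, 79.0 and 78.7 CPM in WT and 85.1, 60.5 and 70.6 in TG (−0.11 ± 0.16), so TG 1 and the other TG libraries fell on opposite sides of WT.

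Of the 14 synaptotagmins tested, 7 had fitted values above 0 and 7 below. The abundant ones differed little. Syt13 had 1059, 925 and 1079 CPM in WT and 902, 1032 and 1074 in TG (log2 fold change −0.03 ± 0.17), and it held 62.4% ± 0.2 of the family's FPKM in WT and 61.8% ± 2.6 in TG. Syt7, a slow and sensitive calcium sensor of insulin granules, measured 354, 319 and 394 CPM in WT and 326, 298 and 383 in TG (−0.09 ± 0.15). The groups overlapped for both. Syt9, another calcium sensor of insulin granules, had a log2 fold change of −0.17 ± 0.14. Syt4, which does not bind calcium through its first C2 domain and is linked to beta-cell maturation, measured 217, 155 and 165 CPM in WT and 149, 228 and 99.1 in TG (−0.23 ± 0.25). Its lowest value was in TG 3 and its highest in TG 2, so the TG libraries spanned the WT range.

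Syt16 showed the smallest p of all the exocytosis genes. It encodes an atypical synaptotagmin, lies on GRCm38 at chr12:73997761-74267916, and measured 3.56, 3.21 and 2.80 CPM in WT and 8.87, 4.80 and 9.22 CPM in TG. These are 64 to 73 counts in the WT libraries and 121 to 255 in the TG libraries. All 3 TG libraries were above WT, with TG 2 again nearest. The log2 fold change was 1.25 ± 0.32, with an edgeR adjusted p of 0.222. DESeq2 gave an adjusted p of 0.0142, in a range of 0.00204 to 0.927 over all alternatives. Syt16 shares 183 exonic bases with Gm29587 on the opposite strand.

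Syt2, a fast calcium sensor of neurons, was lower in every TG library: 11.9, 14.1 and 14.1 CPM in WT against 9.39, 10.5 and 7.26 in TG. Its log2 fold change was −0.57 ± 0.21, with an edgeR adjusted p of 0.292. Syt6 was near the floor of detection in the first table's WT libraries, at 7 and 10 counts, with 26 counts in WT 3 and 50, 25 and 41 in TG. Its log2 fold change of 1.29 ± 0.42 (edgeR adjusted p 0.266) rests on these low counts, and 505 of its exonic bases overlap Atg4a-ps.

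Only Cplx1 and Cplx2 of the 4 complexins were tested. Cplx2 was the complexin of these islets, at 452, 397 and 448 CPM in WT and 517, 438 and 632 in TG (log2 fold change 0.28 ± 0.17). TG 1 and TG 3 were above WT and TG 2 within it. Cplx1 was hardly expressed, with 7, 11 and 32 counts in WT and 52, 21 and 65 in TG (1.34 ± 0.42, edgeR adjusted p 0.250). Its TG libraries were above the WT libraries of their own table, and TG 2 was below WT 3.

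Among the priming and C2-domain factors, 6 of 9 tested genes had fitted values above 0 and 3 below. Rims3 lies on GRCm38 at chr4:120854816-120896579 and measured 99.9, 90.9 and 135 CPM in WT and 19.9, 69.6 and 35.1 CPM in TG. Every TG library was below every WT library. TG 1 and TG 3 were far below, and TG 2 was nearer to WT. The log2 fold change was −1.37 ± 0.44 with an edgeR adjusted p of 0.261. DESeq2 gave an adjusted p of 0.0348, in a range of 6.18e-11 to 0.966 over all alternatives, and without TG 2 the log2 fold change was −2.13. Within the RIM family, Rims3 held 64.1% ± 6.7 of the FPKM in WT and 25.9%, 59.6% and 43.6% in the TG libraries in numbered order. Rims2, a scaffold that links granules to calcium channels, measured 42.4, 37.1 and 32.7 CPM in WT and 35.3, 29.5 and 28.3 in TG (−0.27 ± 0.14).

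Unc13a, the main Munc13 of beta cells, measured 123, 107 and 189 CPM in WT and 199, 118 and 152 in TG (log2 fold change 0.20 ± 0.25), with no order between the groups. Cadps, which encodes the priming factor CAPS, measured 157, 136 and 135 CPM in WT and 132, 127 and 171 in TG (−0.01 ± 0.16), and Cadps2 had a log2 fold change of 0.38 ± 0.20. The groups of both genes overlapped. Unc13d, the Munc13 that binds Rab27 in blood cells, measured 0.810, 0.924 and 1.88 CPM in WT and 2.68, 1.47 and 4.07 in TG, from 15 to 98 counts per library. Its log2 fold change was 1.20 ± 0.33, with an edgeR adjusted p of 0.234. Doc2b, a sensitive calcium sensor, measured 1.46, 2.24 and 4.25 CPM in WT and 5.46, 1.55 and 1.78 in TG. TG 1 was above and TG 3 below the WT libraries of the same table.

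The synaptotagmin-like proteins, Rab3, Rab27 and their effectors held the gene with the largest fitted difference. Sytl4 lies on GRCm38 at chrX:133936385-133981812. It measured 443, 437 and 343 CPM in WT and 41.5, 305 and 56.5 CPM in TG. TG 1 and TG 3 were at a small part of the WT level, TG 2 was just below the lowest WT library, and the groups did not overlap. The log2 fold change was −1.76 ± 0.68, with an edgeR adjusted p of 0.318. Without TG 2, the TG library nearest to WT, the log2 fold change was −3.06 and the edgeR adjusted p 0.00105 (4.39% of all genes called lower). With TG 2 kept and no low-count filter, edgeR also called Sytl4 lower (1.25% of all genes called). Over all alternatives the adjusted p ranged from 4.69e-14 to 1. Sytl4 held 77.0% ± 1.5 of the family's FPKM in WT and 23.1%, 67.0% and 32.9% in the TG libraries in numbered order. Sytl5, a Rab27 effector of the same family, took up 12.9% ± 4.8 in WT and 56.9%, 24.3% and 37.7% in the TG libraries.

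**Figure D3:**
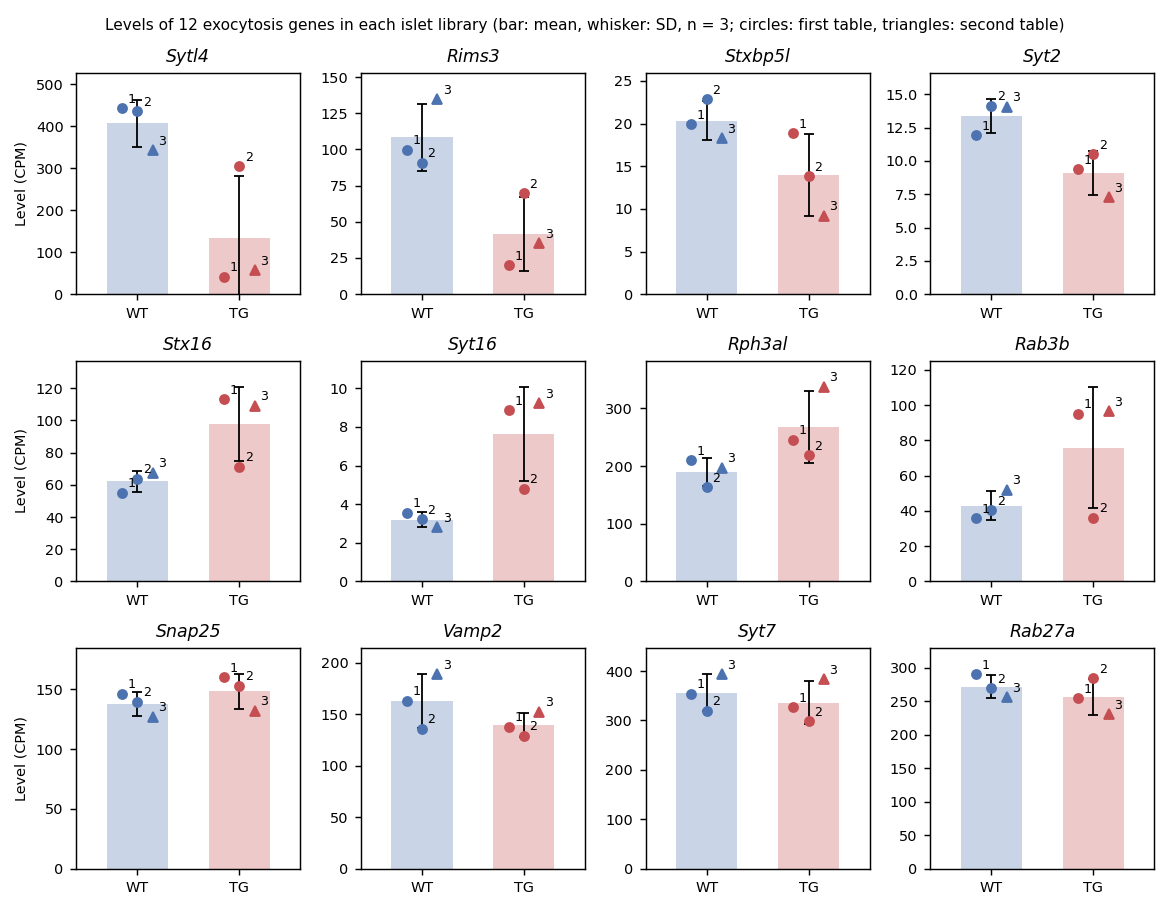
Level in CPM of 12 exocytosis genes in each library (bars are means and whiskers SD over 3 libraries, circles mark the first table and triangles the second, and digits number the libraries within a genotype). Sytl4 and Rims3 are lowest in TG 1 and TG 3, Syt2 is lower in all 3 TG libraries, and Snap25, Vamp2, Syt7 and Rab27a overlap between the genotypes.

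Rab27a, the GTPase that recruits granuphilin to insulin granules, measured 291, 269 and 255 CPM in WT and 254, 284 and 230 in TG (log2 fold change −0.09 ± 0.14). Its groups overlapped, unlike those of Sytl4. Rab3a, a Rab3 of these granules, measured 52.0, 52.7 and 74.5 CPM in WT and 75.5, 42.8 and 74.2 in TG (0.12 ± 0.22). Exph5, another Rab27 effector, measured 57.8, 58.5 and 31.2 CPM in WT and 35.9, 49.1 and 35.2 in TG (−0.25 ± 0.19). In both genes TG values lay on both sides of WT values.

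Other Rab genes and effectors had higher fitted values. Rab3b, a paralog of Rab3a, measured 36.0, 40.5 and 51.9 CPM in WT and 95.2, 36.1 and 96.5 in TG, high in TG 1 and TG 3 and at the WT level in TG 2. The log2 fold change of Rab3b was 0.82 ± 0.33 (edgeR adjusted p 0.340), and the gene shares 317 exonic bases with 8030443G20Rik. Rph3al, which encodes the Rab effector Noc2 of endocrine cells, measured 210, 163 and 197 CPM in WT and 246, 219 and 338 in TG, with no overlap (0.47 ± 0.18, edgeR adjusted p 0.312). Rab27b, the paralog of Rab27a, had 53 to 67 counts in WT and 231, 82 and 115 in TG (0.93 ± 0.37, edgeR adjusted p 0.327), also with no overlap. Sytl5 measured 43.6, 35.9 and 15.1 CPM in WT and 46.0, 49.7 and 29.1 in TG (0.49 ± 0.18, edgeR adjusted p 0.308), so WT 1 and TG 3 overlapped across tables. Sytl2, another Rab27 effector, measured 6.10, 13.0 and 7.62 CPM in WT and 32.7, 6.99 and 13.7 in TG (0.98 ± 0.56). It was well above WT in TG 1 only.

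Over the whole set, 35 of the 74 tested genes had fitted values above 0 and 39 below, with a median log2 fold change of −0.02 against −0.01 over all 16072 genes tested. With edgeR, 0 genes had an adjusted p under 0.05 in either direction, as for all genes (0% called). The smallest adjusted p was 0.222 among the exocytosis genes and 0.199 among all genes. At an unadjusted p under 0.05, edgeR gave 17 of 74 (22.97%), beside 14.1% of all genes. Of these, 10 were higher in TG (13.5%, beside 9.32% of all genes): Cplx1, Rab27b, Rab3b, Rph3al, Stx16, Stxbp6, Syt16, Syt6, Sytl5 and Unc13d. The other 7 were lower (9.46%, beside 4.81%), among them Napa, Rims3, Stx4a, Stxbp5l, Syt2 and Sytl4. For all 17 the difference had the same sign in both tables. The genes were picked by a fit to both tables, which favours a shared sign, so this is not a separate check.

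The groups did not overlap for 5 genes that were higher in TG (6.76%, beside 6.96% of all genes), which were Rab27b, Rph3al, Stx16, Syt12 and Syt16. They did not overlap for 6 that were lower (8.11%, beside 6.42%), among them Rims3, Stxbp4, Syt2, Sytl3 and Sytl4. Both shares were near those of all genes.

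Other tools and samples gave different numbers of calls. DESeq2 called Syt16 higher (3.83% of all genes called) and 2 genes, Rims3 among them, lower (0.846%). Limma-voom called none, with 15 genes at an unadjusted p under 0.05 (20.3%, beside 13.9%). Without TG 2, edgeR called 6 of 76 higher (7.89%, beside 8.82% of all genes) and 4 lower (5.26%, beside 4.39%). TG 2 was found nearest to WT in these same data, so its removal favours such calls and is not separate support. The higher ones were Rab27b, Rab3b, Stx16, Syt16, Sytl2 and Unc13d, and the lower ones included Rims3, Snap23 and Sytl4. With no filter on low counts, edgeR called 6 of 83 higher (beside 4.37%) and 2 lower (beside 1.25%), namely Cplx1, Rab3b, Stx16, Syt16, Sytl2 and Unc13d, and Rims3 and Sytl4.

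The libraries set apart by their Mir203 or sex-linked counts bear on these numbers. In the first table only, edgeR called 0 genes, and 4 of 74 had an unadjusted p under 0.05 (5.41%, beside 5.33% of all genes): Cplx1, Syt16, Syt6 and Unc13d. In that table the log2 fold change was −1.34 for Sytl4, −1.09 for Rims3 and 0.63 for Stx16. Without WT 1, edgeR called 0 genes and 12 of 76 had an unadjusted p under 0.05 (15.8%, beside 10.3%). There the log2 fold change was −1.87 for Sytl4, −1.41 for Rims3 and 0.61 for Stx16, so the directions were those with all 6 libraries.

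The difference between genotypes was not shown to depend on the table. The interaction of table and genotype had 0 of 74 genes with an edgeR adjusted p under 0.05 (0% of all genes) and 0 with an unadjusted p under 0.05 (beside 2.28%). Limma-voom also gave 0 genes at an unadjusted p under 0.05 (beside 2%). Without the low-count filter, 0 passed the adjusted threshold (beside 0.461%) and Cplx3, Doc2b, Rims3 and Sytl4 had an unadjusted p under 0.05, 4 of 83 (4.82%, beside 3.51%). Since the second table holds a single library of each genotype, the spread in this test comes from the first.

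TG 1 and TG 3, which were compared with different WT libraries, resembled each other more than TG 2 resembled TG 3. Against the WT libraries of its own table, TG 1 had 7 of 74 genes beyond 1 log2 unit (9.46%, beside 7.86% of all genes), TG 3 had 3 (4.05%, beside 9.30%), and TG 2 had 0 (beside 0.622%). WT 1 and WT 2 differed beyond 1 log2 unit in 0 of the 74 genes (beside 1.70% of all genes). The 74 genes are not independent replicates. Across them, the differences in TG 1 and TG 3 correlated at Pearson's r = 0.776 and Spearman's rho = 0.688. Over all genes tested these values were 0.704 and 0.615. The sign was the same in 60 of the 74 genes (81.1%, beside 72.1% of all genes). For TG 2 and TG 3 the correlations were 0.430 and 0.311, beside 0.314 and 0.199 over all genes. There the sign was the same in 41 genes (55.4%, beside 55.2%). Without Sytl4 and Rims3, r for TG 1 and TG 3 was 0.614, below that of all genes, while rho was 0.661, above that of all genes. For TG 2 and TG 3, r was then 0.320 and rho 0.253.

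**Figure D4:**
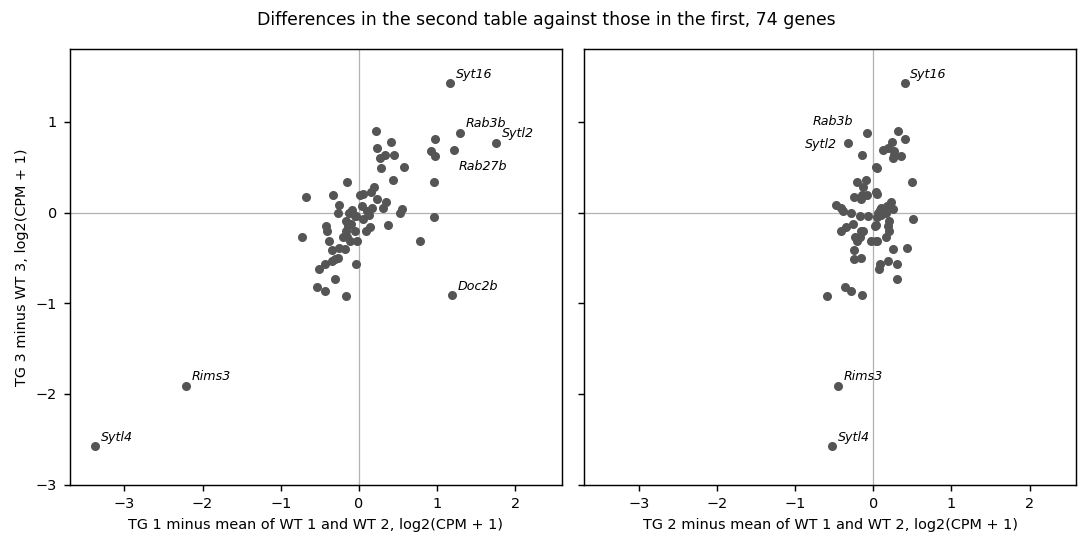
Difference of TG 3 from WT 3 (vertical) against that of TG 1 (left) and TG 2 (right) from the mean of WT 1 and WT 2, on the log2(CPM + 1) scale, for 74 genes. On the left the points follow a rising line that ends in Sytl4 and Rims3 (r = 0.776), and on the right they form a narrow band around 0 (r = 0.430). Over all genes tested, r was 0.704 for TG 1 and 0.314 for TG 2.

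The summed beta-cell markers and the summed delta- and PP-cell markers differed along with these genes, while alpha-cell markers had another order of libraries. For the 10 beta-cell markers the summed level was 238368, 230779 and 117163 CPM in the WT libraries. It was 56423, 224372 and 54720 CPM in the TG libraries, in numbered order, with fitted values below 0 for 9 of 10. This sum was mostly Ins1, Ins2 and Iapp, at 23753, 156245 and 54651 CPM in WT 1. TG 1 and TG 3, lowest in Sytl4 and Rims3, were also lowest in the sum, and TG 2 was close to WT 1 and WT 2. Single markers did not all share this order. Nkx6-1 was highest in TG 3, at 709 CPM, and Iapp in TG 1 was above WT 3. TG 2 was below every WT library for Mafa, Pdx1, Nkx6-1, Slc2a2, Ucn3 and Slc30a8, but not for Ins1, Ins2, Iapp and G6pc2. The 6 delta- and PP-cell markers summed to 8368 to 9578 CPM in WT and to 26284, 13236 and 36371 CPM in TG, with all 6 fitted values above 0. The hormone genes Ppy and Pyy made up most of the sum in TG 3, at 20220 and 11318 CPM. Ppy, Pyy and Rbp4 did not overlap between the genotypes. Sst, Hhex and Ghsr did, with unadjusted edgeR p of 0.130, 0.230 and 0.422. The 8 alpha-cell markers summed to 19295 to 27806 CPM in WT and 49048, 30568 and 23453 CPM in TG (7 of 8 above 0), so TG 3 was within the WT range. The part of the cell makeup in the differences of the exocytosis genes was not tested.

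Each list of non-endocrine markers had a smaller sum in CPM than each endocrine list in every library. CPM is not scaled to gene length and the lists differ in size, so this order does not give the amount of each cell type. Duct markers (8 of 8 tested above 0) summed to 889 to 1342 CPM in WT and 2376, 1860 and 1902 in TG, and stellate and fibroblast markers (7 of 9 above 0) to 24.6 to 76.4 CPM in WT and 178, 32.9 and 135 in TG. Schwann-cell markers (6 of 7 above 0) summed to 19.2 to 31.7 CPM in WT and 47.6, 27.9 and 57.8 in TG. These 3 groups were higher in TG 1 and TG 3 than in any WT library. Acinar markers (10 of 13 above 0) varied mainly by table, from 151 to 7612 CPM in WT and at 4010, 5443 and 332 CPM in TG. Endothelial markers (7 of 8 above 0) summed to 241 to 382 CPM in WT and 303, 277 and 518 in TG. Myeloid and lymphoid markers (2 of 7 above 0) summed to 34.2 to 108 CPM in WT and 51.0, 31.0 and 41.6 in TG. Neuronal markers (5 of 8 above 0), which matter because nerve terminals hold much of the same machinery, summed to 183 to 211 CPM in WT and 229, 162 and 194 in TG. Of these, the noradrenergic marker Dbh had no read in WT and at most 0.125 CPM in TG. Other neuronal markers were present: Th measured 28.1, 24.0 and 44.9 CPM in WT and 70.9, 16.5 and 87.1 in TG, with a log2 fold change of 0.82 at an unadjusted edgeR p of 0.125. Nefm was highest in TG 1, at 85.5 CPM, beside 24.0 to 44.3 CPM in the other libraries. Tubb3 measured 92.8, 63.7 and 94.3 CPM in WT and 24.9, 72.8 and 24.5 in TG (−1.09, unadjusted edgeR p 0.0457). Cd3e of T cells had no read in WT 2, TG 1 and TG 2. The part of these cells in the differences was not tested.

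The neighbouring genes of the pathway were taken from a list of 78 active-zone and vesicle proteins, Rab regulators, exocyst subunits, other SNAREs with their SM proteins, extended synaptotagmins, ferlins and synucleins, of which 74 were tested. None had an edgeR adjusted p under 0.05, while at an unadjusted p under 0.05 there were 10 higher (13.5%, beside the same 9.32%) and 6 lower (8.11%, beside 4.81%). DESeq2 called 3 of the 74 higher (4.05%, beside 3.83% of all genes) and 1 lower (1.35%, beside 0.846%). Without TG 2, edgeR called 9 of 75 higher (12.0%, beside 8.82%) and 4 lower (5.33%, beside 4.39%). The median log2 fold change of the 74 was −0.07.

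The higher genes included synucleins and synaptic vesicle proteins. Sncb, which encodes beta-synuclein, measured 19.4, 15.7 and 29.7 CPM in WT and 71.0, 29.8 and 75.7 in TG, a log2 fold change of 1.47 ± 0.31 with an edgeR adjusted p of 0.199 and a DESeq2 adjusted p of 0.000873. TG 2 was just above WT 3. Esyt3, an extended synaptotagmin of membrane contact sites, measured 3.29, 3.65 and 2.80 CPM in WT and 10.99, 5.56 and 15.1 in TG (1.64 ± 0.37), with no overlap. The other 8, among them Bsn, Ppfia3, Sv2b, Sv2c, Syngr1, Exoc6 and Sncg, had log2 fold changes from 0.33 to 1.92. Sv2b, a vesicle glycoprotein, measured 17.7, 15.6 and 12.3 CPM in WT and 39.5, 20.2 and 34.0 in TG (1.05 ± 0.28).

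Among the lower ones, Mlph encodes melanophilin, which binds Rab27a and a myosin motor. It measured 12.7, 9.86 and 18.0 CPM in WT and 0.591, 6.47 and 0.581 in TG, so TG 1 and TG 3 were low and TG 2 lay nearer to WT. Its log2 fold change was −2.58 ± 0.97, with an edgeR adjusted p of 0.310, and 0.000903 without TG 2, whose removal favours a small p. Pclo, the active-zone scaffold piccolo, measured 281, 268 and 211 CPM in WT and 163, 172 and 180 in TG, with all TG libraries below WT (−0.55 ± 0.16, edgeR adjusted p 0.239, DESeq2 adjusted p 0.0309). Scamp3, Snph, Rab3gap2 and Sec22c had log2 fold changes from −0.50 to −0.34. Of the other SNAREs and SM proteins, 14 of 17 had fitted values below 0 (beside 8349 of 16072 over all genes). Only 1, Sec22c, had an unadjusted edgeR p under 0.05. The 17 genes summed to 1481, 1324 and 1289 CPM in WT and 1098, 1559 and 919 in TG, so TG 2 was the highest library.

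The 3′ UTRs were read for matches to the seed of miR-203-3p, since a repressed target would be lower in TG. The letters searched, on the transcript strand only, were CATTTCAA (8mer), CATTTCA without that final A (7mer-m8) and ATTTCAA without the C before it (7mer-A1), in the longest annotated 3′ UTR per gene. Of the 73 tested exocytosis genes with a 3′ UTR, 20 held a match (27.4%) beside 25.1% of 13822 protein-coding genes tested. An 8mer was in 6 (8.22%) beside 5.06%. The exocytosis genes had longer 3′ UTRs, with a median of 1953 bases against 1181.5, and per kilobase they held 0.159 matches of any kind against 0.221, but 0.0413 8mers against 0.0333. The windows below show the 8mers of 5 of these 6 genes, with the match in capitals, as 22 bases of the GRCm38 transcript strand. The 8mer genes are shown because these matches are the longest searched.
Stx16, chr2:174097938-174097959, plus strand: accaaacatcactcCATTTCAA
Syt2, chr1:134748959-134748980, plus strand: aaacacggggcattCATTTCAA
Stxbp6, chr12:44852854-44852875, minus strand: tcaggttgatgtttCATTTCAA
Rab3c, chr13:110060754-110060775, minus strand: aaaaggtaggccaaCATTTCAA
Stxbp4, chr11:90478019-90478040, minus strand: gagctacagctaacCATTTCAA
Stxbp4, chr11:90477449-90477470, minus strand: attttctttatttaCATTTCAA

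The 6 genes with an 8mer had a median log2 fold change of 0.25, beside −0.03 for the 53 exocytosis genes with no match. Over all protein-coding genes tested, the median was −0.026 for the 699 genes with an 8mer and −0.004 for the 13123 without. Of these, 53.9% and 50.5% had values below 0. Among the 6 genes, Stx16, Stxbp6 and Rab27b had the higher values given above, and Rab3c had 0.08 ± 0.24. Syt2 (−0.57 ± 0.21) and Stxbp4 (−0.36 ± 0.17) were lower in all 3 TG libraries. Stxbp4, whose product binds syntaxin 4, holds 2 of the 8mers and measured 13.7, 14.2 and 12.0 CPM in WT and 10.7, 11.6 and 8.80 in TG. Sytl4 and Rims3, the genes with the lowest fitted values, held none of these letters in the 3′ UTR read. Napa held a 7mer-m8, shown because it is the only such match among the genes with lower values at an unadjusted p under 0.05. Syt16, which was higher, held a 7mer-A1. A match in this window is a description and not a measured site, and no match says only that these letters are not there.
Napa, chr7:16117264-16117285, plus strand: gggagcctcataccCATTTCAc

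**Figure D5:**
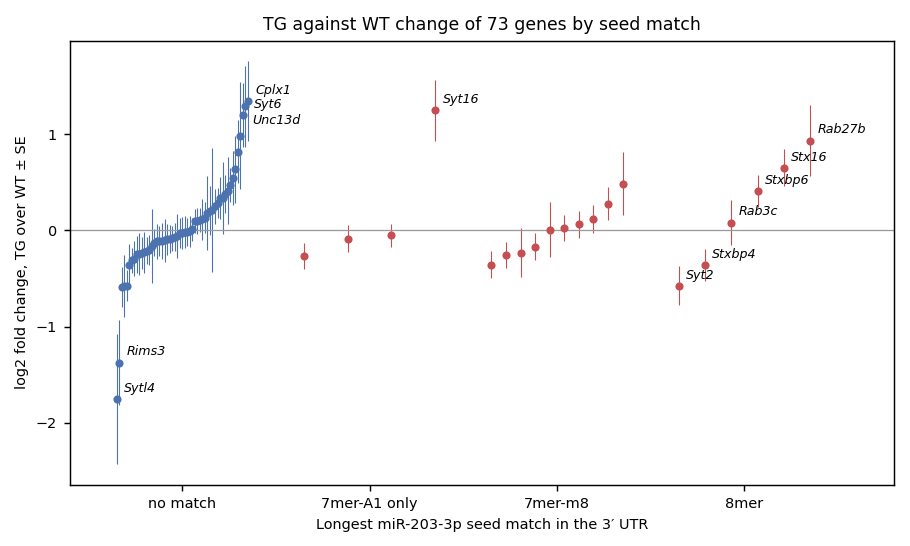
Fitted log2 fold change (TG over WT, with SE) of the 73 genes with a 3′ UTR, ordered within 4 classes by their longest match to the miR-203-3p seed. The 8mer genes spread from Syt2 at −0.57 to Rab27b at 0.93 around a median of 0.25, and Sytl4 and Rims3 stand at the low end of the genes with no match.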

How the data were processed

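Per the submitters' processing notes, CASAVA 1.8, HISAT2 and GRCm38 (mm10) were used. How reads were counted, with which strand setting and which annotation, is not given in the sources used here. Overlapping and antisense genes are therefore uncertain. The authors deposited raw counts, a normalized signal per gene (not used) and FPKM, made separately for the 2 tables per the file headers, so FPKM sets levels across tables only approximately.

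The deposited counts of the 2 tables were merged by gene identifier. The genotypes were compared with the quasi-likelihood F-test of edgeR 4.0.16 (R 4.3.3), after filterByExpr and TMM and without robust estimation, with terms for table and genotype. Benjamini-Hochberg adjustment ran over 16072 genes, with a threshold of 0.05. SE was taken from the F statistic as the size of the log2 fold change over its square root. CPM is on TMM-adjusted library sizes, and differences per library are on log2(CPM + 1). DESeq2 1.42.0, limma-voom (limma 3.58.1), other filters and normalizations, the first table only and leaving out each library were alternatives. The edgeR step was tested on simulated data. Depth was 20176456 to 27482339 counts per library. 3′ UTRs came from GENCODE M21 (GRCm38), taking the longest per gene.

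The genes named are those with an unadjusted p under 0.05, the 10 with the highest FPKM, the 9 not tested and a list of granule-exocytosis genes of beta cells; other genes were named after their values were seen. The genes and lists were chosen with earlier results of these data known. The results of some genes are not reported here.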

Additional observations from a re-analysis of the deposited data

How the results depend on the processing

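The count of exocytosis genes past an adjusted p of 0.05 moved with the tool, the filter and TG 2. From 0 higher and 0 lower (beside 0% of all genes), it became 1 and 2 with DESeq2 (beside 3.83% and 0.846% of all genes). Without the low-count filter it became 6 and 2 (beside 4.37% and 1.25%). Leaving out each library in turn gave 0 to 6 higher and 0 to 4 lower, with the highest values without TG 2. Over all genes these shares were 0% to 8.82% and 0% to 4.39%, also highest without TG 2. The count stayed at 0 in both directions (beside 0% of all genes) with limma-voom, edgeR's bias-adjusted form and RLE size factors. The same held with a minimum of 1 CPM in 3 libraries, no table term and the first table only. Without the filter but with the bias-adjusted form, an alternative chosen after seeing the data, the count was 0 as well (beside 0%). The cause of these moves was not tested. The interaction of table and genotype gave 0 in every setting run (beside 0% to 0.461% of all genes).

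Over the 38 named genes tested, 494 of 532 values under alternatives kept their direction and side of the threshold, 19 passed it anew and 19 turned in sign. The sign turned only for genes whose log2 fold change was smaller than its SE: Cadps (0.0003 with the stricter filter, 0.0043 without the table term) and Syt4 (0.0176 in the first table only), and on leaving out a library. There the log2 fold change ranged from −0.18 to 0.12 for Cadps, −0.69 to 0.92 for Doc2b, −0.27 to 0.0093 for Nsf, −0.17 to 0.30 for Rab3a, −0.0864 to 0.0483 for Syt13, −0.50 to 0.0171 for Syt4, −0.11 to 0.46 for Unc13a, −0.20 to 0.0414 for Vamp3 and −0.16 to 0.0905 for Vamp8.

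No paired analysis was possible because the labels give the WT and TG libraries no shared replicate numbers. Cplx1, Syt6 and Unc13d had under 100 counts in every library, so their fold changes carry a wide counting error.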
